A study of Mus musculus with 24 samples.

Results

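Vnn1 (vanin 1, Entrez gene 22361) was followed across 24 mouse lungs. It was chosen by its own measurement, in the comparison of lungs given N-DEP with lungs given A-DEP, both without ovalbumin. N-DEP and A-DEP are 2 of the 3 diesel exhaust particle samples compared in the study. Vnn1 was the 1 gene of 12393 that passed an adjusted p of 0.05 in limma there. Its members were all probe sets annotated to Vnn1 and to no other gene, which gave 1 probe set of 22690 on the array. No probe set named Vnn1 together with another gene.

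The lungs came from female BALB/C mice aged 8 to 10 weeks, in 8 groups of 3 mice. Each mouse received intranasal doses on days 0 and 13, and the lungs were taken 18 hours after the second dose. Without ovalbumin, the groups received saline, or 150 ug of N-DEP, A-DEP or C-DEP, and the labels call these mice not sensitized. The other 4 groups received 20 ug of ovalbumin (OVA, an egg protein used as an allergen) alone or together with 150 ug of the same particles, and the labels call these mice sensitized. RNA from frozen whole lung was hybridised to 1 Affymetrix array per mouse. The groups are called Saline, NDEP, ADEP, CDEP, Saline/OVA, NDEP/OVA, ADEP/OVA and CDEP/OVA below.

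Vanin 1 is an enzyme anchored to the outer face of the cell membrane by a lipid. It is a pantetheinase: it splits pantetheine, a breakdown product of coenzyme A, into pantothenate (vitamin B5), which cells can use to make coenzyme A again, and cysteamine, a small thiol. It is known from epithelia such as those of gut and kidney and from liver, where its gene is a target of the fatty acid receptor PPAR alpha, and the enzyme has been linked to oxidative stress and inflammation. Mice carry a related gene, Vnn3, which is the neighbour of Vnn1 on one side in the RefSeq table of assembly GRCm38.p6, with Taar1 on the other.

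Values are log2 of the deposited intensity, so a difference of 1 is a doubling. Vnn1 lay above the 25th percentile of its array on all 24 arrays, from 5.36 to 7.86, where those percentiles lay between 4.45 and 4.65. In whole tissue, fewer cells of a type and less RNA per cell cannot be told apart.

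Among the mice without OVA, the Saline arrays read 5.36, 5.60 and 5.75 (5.57 ± 0.20, SD, n = 3). The NDEP arrays read 7.28, 7.74 and 7.86 (7.63 ± 0.31, SD, n = 3). These were the 3 highest Vnn1 values of the study, and the lowest of them lay above every array of the other groups. The ADEP arrays read 6.21, 6.40 and 6.87 (6.49 ± 0.34, SD, n = 3). The CDEP arrays read 6.88, 6.82 and 7.03 (6.91 ± 0.11, SD, n = 3). All 9 arrays of the mice given particles alone stood above the 3 Saline arrays, and the highest ADEP array lay within the CDEP range. As geometric mean intensities, the 4 groups stood at 47.5 for Saline, 90.2 for ADEP, 120 for CDEP and 198 for NDEP.

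Among the mice given OVA, the Saline/OVA arrays read 5.87, 5.42 and 5.84 (5.71 ± 0.25, SD, n = 3). The NDEP/OVA arrays read 6.73, 6.71 and 6.70 (6.71 ± 0.015, SD, n = 3). The NDEP/OVA arrays therefore lay closer together than those of any other group, and all 3 lay below the lowest NDEP array. The ADEP/OVA arrays read 6.36, 5.66 and 5.94 (5.99 ± 0.35, SD, n = 3). The CDEP/OVA arrays read 6.34, 6.68 and 6.18 (6.40 ± 0.25, SD, n = 3). Replicate 2 of ADEP/OVA lay among the Saline/OVA arrays, whereas all CDEP/OVA and NDEP/OVA arrays lay above them. The geometric mean intensities were 52.5 for Saline/OVA, 63.5 for ADEP/OVA, 84.4 for CDEP/OVA and 105 for NDEP/OVA.

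**Figure D1:**
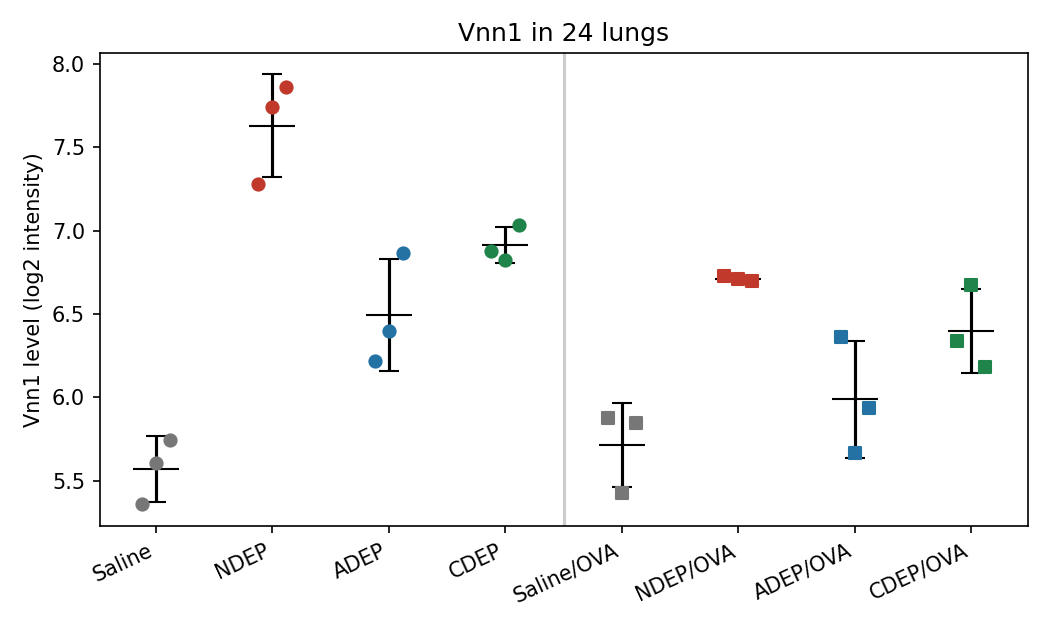
Vnn1 level (log2 intensity) on each of the 24 arrays, by group. Points are mice, wide bars are group means and whiskers are 1 SD (n = 3). The 4 groups without ovalbumin stand left of the grey line and the 4 with ovalbumin right of it, and NDEP is the highest group on each side.

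From the highest mean to the lowest, the order was NDEP, CDEP, NDEP/OVA, ADEP, CDEP/OVA, ADEP/OVA, Saline/OVA and Saline. NDEP exceeded CDEP by 0.72 and CDEP exceeded NDEP/OVA by 0.20, in both cases with no shared range. From NDEP/OVA downwards, each group overlapped the next in its range: the steps were 0.22 to ADEP, 0.10 to CDEP/OVA, 0.41 to ADEP/OVA, 0.27 to Saline/OVA and 0.14 to Saline. N-DEP, C-DEP and A-DEP stood in the same order of means with and without OVA.

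The contrast of NDEP with ADEP is the one by which Vnn1 was selected, so all 9 comparisons that use the NDEP or ADEP arrays are given as descriptions. Vnn1 was 1.14 ± 0.18 (SE of the fit) higher in NDEP than in ADEP, which is 2.20-fold. Its adjusted p in limma was 0.0199, and 0.00807% of genes passed 0.05, which is Vnn1 itself. The gene just outside was Hamp, the iron hormone hepcidin, at -0.68 with an adjusted p of 0.415. Against Saline, Vnn1 was 2.06 higher in NDEP (4.18-fold) and 0.93 higher in ADEP (1.90-fold). Ranked by fold over all 12393 genes, it was the 7th highest in NDEP and the 39th highest in ADEP. Vnn1 was 0.72 lower in CDEP than in NDEP and 0.42 higher in CDEP than in ADEP.

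The particle comparison without OVA that used neither the NDEP nor the ADEP mean was C-DEP against saline. Vnn1 rose in CDEP by 1.34 ± 0.18 (SE), which is 2.54-fold, with a 95% confidence interval of 0.97 to 1.72 and an adjusted p of 0.000323 (limma, Benjamini-Hochberg over all genes). In this comparison 4.04% of genes passed, and Vnn1 had the 4th smallest p. RNA quality moved with these groups: the difference between 3' and 5' Gapdh probe sets, which grows as RNA degrades, was 0.362 ± 0.285 in Saline and 0.0607 ± 0.0617 in CDEP (SD, n = 3), with no shared range and an exact permutation p of 0.1, the smallest that 3 against 3 allows. The same difference for Actb was 1.01 ± 0.196 in Saline and 0.658 ± 0.0271 in CDEP. With both differences as covariates, Vnn1 was 1.03 higher and its adjusted p was 0.0856, so the call was lost. The difference was between 1.24 and 1.43 without any 1 array and passed each time.

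With OVA present, particles were compared with Saline/OVA. N-DEP came first: Vnn1 rose by 1.00 ± 0.18 (SE), or 2.00-fold, with a 95% confidence interval of 0.63 to 1.37 and an adjusted p of 0.00237 in limma. Of all genes, 2.07% passed in this comparison. It passed without any 1 of the 6 arrays, with differences from 0.85 to 1.08. RNA quality differed between these groups too. The 3' minus 5' Actb difference ran from 0.953 to 1.08 in NDEP/OVA and from 0.729 to 0.914 in Saline/OVA, while the Gapdh ranges overlapped. Over the alternative fits, which included covariates, the Vnn1 difference ran from 0.98 to 1.26 and passed each time.

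C-DEP with OVA also raised Vnn1, by 0.69 ± 0.18 (SE), or 1.61-fold, with a 95% confidence interval of 0.31 to 1.06 and an adjusted p of 0.0260 in limma, where 4.79% of genes passed. This call rested on single arrays. It was lost without Saline/OVA replicate 2 (0.54, adjusted p = 0.202), without CDEP/OVA replicate 1 (0.72, adjusted p = 0.0574) and without CDEP/OVA replicate 2 (0.55, adjusted p = 0.188).

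For A-DEP with OVA, Vnn1 stood 0.27 ± 0.18 (SE) above Saline/OVA. The 95% confidence interval ran from -0.10 to 0.65, the adjusted p in limma was 0.601, and 0.686% of genes passed. The ranges overlapped, and the interval includes no difference. The value was 0.13 without Saline/OVA replicate 2, 0.09 without ADEP/OVA replicate 1 and 0.44 without ADEP/OVA replicate 2. It was 0.13 with array weights and 0.56 with heart and fat marker covariates, and did not pass in any of these.

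OVA without particles was compared with saline alone. Vnn1 differed by 0.14 (95% confidence interval -0.23 to 0.52, adjusted p = 0.922 in limma), with overlapping ranges. In limma 0% of genes passed in this comparison, and 818 of 12393 genes had an unadjusted p under 0.05. With no difference at all, a share of 0.05 of the genes would be expected under that cut.

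Each particle was then set beside the same particle with OVA. CDEP/OVA stood below CDEP by a difference of -0.51 (95% confidence interval -0.89 to -0.14), and all 3 CDEP/OVA arrays lay below all 3 CDEP arrays. The adjusted p was 0.104 in limma, and 3.58% of genes passed. With only the 6 arrays of these groups in the fit, the adjusted p was 0.0402. With the RNA quality covariates, the difference was -0.19 and the adjusted p was 0.784. As descriptions, the difference was -0.92 for NDEP/OVA against NDEP, with no shared range, and -0.51 for ADEP/OVA against ADEP, where ranges overlapped.

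Whether the particle effect differed with OVA was read from the interaction, the effect over Saline/OVA minus the effect over Saline. For C-DEP it was -0.66 ± 0.26 (SE; 95% confidence interval -1.19 to -0.13) with an adjusted p of 0.277 in limma, where 0.371% of genes passed. With the RNA quality covariates, it was -0.16 with an adjusted p of 0.949. The corresponding values were -1.06 for N-DEP and -0.65 for A-DEP, both descriptions. All 3 interactions were below 0, and they share the Saline and Saline/OVA arrays.

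**Figure D2:**
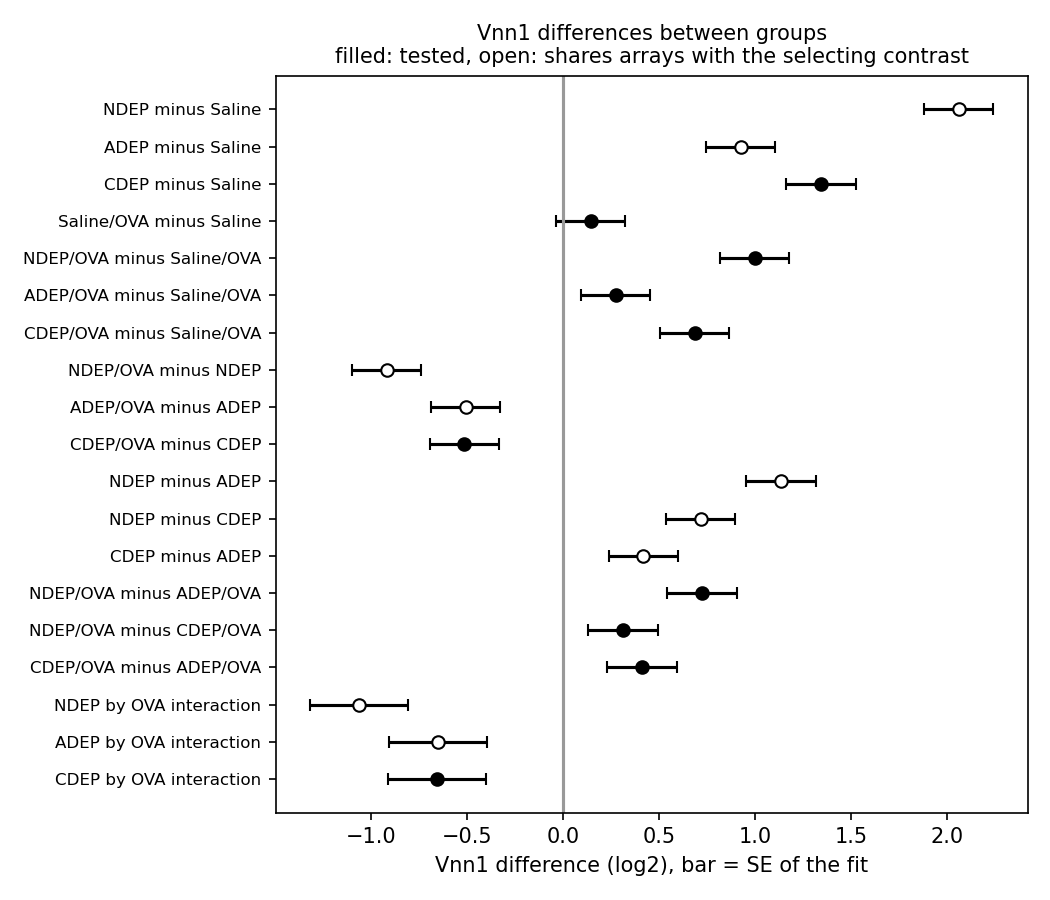
Vnn1 differences between groups (log2) from the fit over all 24 arrays, with bars of 1 SE. Filled points are the 10 comparisons that were tested and open points the 9 that use the NDEP or ADEP arrays by which the gene was selected. The particle differences without OVA lie between 0.93 and 2.06, those with OVA between 0.27 and 1.00.

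The 3 particles differ in their chemistry, as the study's title says. With OVA, 3 pairs of particles could be compared at the same dose on arrays whose means had no part in the selecting contrast. The spread behind the SE and the limma p came from all arrays and was shared with that contrast. Vnn1 was 0.72 ± 0.18 (SE) higher in NDEP/OVA than in ADEP/OVA, or 1.65-fold, with a 95% confidence interval of 0.35 to 1.10. All 3 NDEP/OVA arrays exceeded all 3 ADEP/OVA arrays, and the exact permutation p was 0.1, the smallest possible. The limma p was 0.000506 before and 0.179 after adjustment over all genes, so this difference did not pass, and 0.0161% of genes did. Vnn1 had the 35th smallest p of 12393 genes there. RNA quality differed between these groups too. The difference between 3' and 5' Actb probe sets was 1.01 ± 0.070 in NDEP/OVA and 0.828 ± 0.078 in ADEP/OVA (SD, n = 3), with no shared range. The Gapdh ranges overlapped. Over the alternative fits, the Vnn1 difference ran from 0.70 to 0.88 and did not pass.

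NDEP/OVA exceeded CDEP/OVA by 0.31 (95% confidence interval -0.06 to 0.68, adjusted p = 0.727 in limma), where 0.00807% of genes passed. CDEP/OVA exceeded ADEP/OVA by 0.41 (95% confidence interval 0.04 to 0.78, adjusted p = 0.193 in limma), where 1.43% of genes passed. The first of these was 0.21 without CDEP/OVA replicate 3, and the second was 0.25 without ADEP/OVA replicate 2 and 0.27 without CDEP/OVA replicate 2. None of the 3 pairs passed for Vnn1, and their intervals still hold differences of up to 1.10, 0.68 and 0.78. These p-values were adjusted over all genes within each pair and not over the 3 pairs.

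Vnn3 (Entrez gene 26464), the other vanin measured, was higher than its control mean in all 6 particle groups, as Vnn1 was. Its group means without OVA were 5.71 ± 0.14 in Saline, 6.53 ± 0.14 in NDEP, 6.24 ± 0.078 in ADEP and 6.38 ± 0.053 in CDEP (SD, n = 3 each). Vnn3 rose over Saline by 0.81 in NDEP (adjusted p = 0.000727), 0.66 in CDEP (adjusted p = 0.00661) and 0.52 in ADEP (adjusted p = 0.0414), each with an SE of 0.13 in limma. The ADEP call was lost without any 1 of 5 of its 6 arrays, all except Saline replicate 2, with differences from 0.45 to 0.58. With the RNA quality covariates, the CDEP difference was 0.71 and its adjusted p was 0.112.

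With OVA, Vnn3 stood at 5.65 ± 0.25 in Saline/OVA, 6.17 ± 0.24 in NDEP/OVA, 6.07 ± 0.20 in ADEP/OVA and 5.89 ± 0.16 in CDEP/OVA (SD, n = 3 each). It rose in NDEP/OVA by 0.52 (adjusted p = 0.0343), a call that was lost without Saline/OVA replicate 2, NDEP/OVA replicate 1 or NDEP/OVA replicate 3, and with the RNA quality covariates (adjusted p = 0.0581). The differences of 0.43 in ADEP/OVA (adjusted p = 0.168) and 0.24 in CDEP/OVA (adjusted p = 0.347) did not pass. Vnn3 fell from CDEP to CDEP/OVA by 0.49 (adjusted p = 0.0409 in limma), a call that was lost without any 1 of 5 of the 6 arrays, all except CDEP/OVA replicate 1.

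Between N-DEP and A-DEP, the vanins stood as follows. Vnn3 was 0.29 higher in NDEP than in ADEP (adjusted p = 0.999) and 0.10 higher in NDEP/OVA than in ADEP/OVA (95% confidence interval -0.17 to 0.37), beside 1.14 and 0.72 for Vnn1. The difference between the genes was not tested. Over the 24 arrays their levels correlated with Pearson's r of 0.84, and with 0.91 over the 12 arrays without OVA and 0.64 over the 12 with OVA. After each group's mean was removed, r was 0.40. The arrays share treatments, and the genes are related, so part of the signal of one probe set could come from the other gene's RNA, which was not tested.

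**Figure D3:**
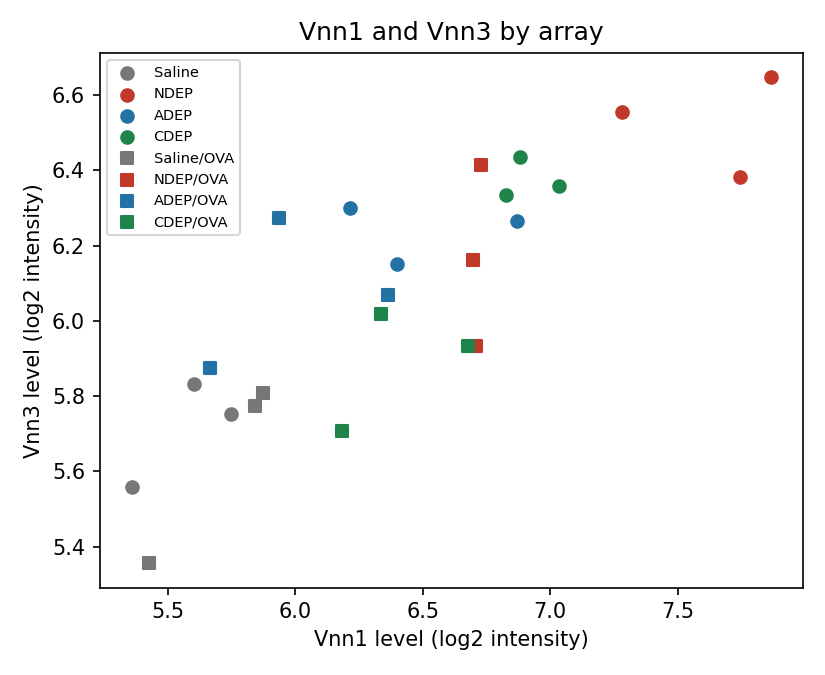
Vnn3 level against Vnn1 level (log2 intensity) on 24 arrays, coloured by particle, with circles for mice without ovalbumin and squares for mice with it. The NDEP circles lie farthest along the Vnn1 axis, at 7.28 to 7.86, with Vnn3 at 6.38 to 6.65, and r over all arrays is 0.84.

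The genes most like Vnn1 were taken as the 10 with the highest Pearson correlation over the 24 arrays. They are described without a test, because the likeness was measured on the same arrays. They were Noxo1, which organises an NADPH oxidase that makes superoxide (r = 0.89), Csf2, the cytokine GM-CSF (0.87), Nfkbiz, a nuclear regulator of NF-kappaB targets (0.86), complement factor B, Cfb (0.86), Itih4, an acute phase protein (0.86), Sod2, the mitochondrial superoxide dismutase (0.85), Cd14, a co-receptor for bacterial lipopolysaccharide (0.85), Slpi, a protease inhibitor of airway secretions (0.84), Vnn3 (0.84) and the zinc transporter Slc39a4 (0.83). Over all genes, 95% of the correlations with Vnn1 lay below 0.52, and the median was 0.00.

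Much of this likeness followed the groups. After group means were removed, r was 0.66 for Cd14, 0.56 for Cfb, 0.55 for Noxo1 and 0.55 for Sod2, but 0.28 for Nfkbiz, 0.28 for Itih4 and 0.24 for Csf2. The 95th percentile over all genes was 0.38 on this measure. All 10 genes were among the 100 most like Vnn1 on the 12 arrays without OVA, and 4 of 10 on the 12 arrays with OVA. The 2 values lay farthest apart for Csf2, at 0.95 without OVA and 0.48 with it. Leaving out NDEP replicates 2 and 3, the arrays farthest from the median of Vnn1, gave 0.87 for Noxo1, 0.86 for Cfb and 0.82 for Csf2.

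The 5 genes with the lowest correlation were the circadian regulators Arntl (r = -0.81) and Clock (-0.73), with Cdip1 (-0.78), Zmynd11 (-0.77) and Rgs5, a pericyte gene (-0.74). On the OVA arrays, r was -0.65 for Arntl and -0.56 for Clock but -0.08 for Cdip1 and -0.12 for Rgs5.

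The like genes were picked by correlation on these same arrays, so a profile shared with Vnn1 was built in. Noxo1 stood at 6.43 ± 0.20 in Saline, 7.80 ± 0.095 in NDEP, 7.28 ± 0.10 in ADEP and 7.52 ± 0.039 in CDEP (SD, n = 3). Cfb stood at 7.29 ± 0.31, 8.99 ± 0.26, 8.42 ± 0.19 and 8.72 ± 0.13 in the same groups. Both had the order of means of Vnn1, with NDEP above CDEP and CDEP above ADEP. Csf2 stood at 6.80 ± 0.17 in NDEP and 5.93 ± 0.045 in NDEP/OVA, with no shared range, as for Vnn1.

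The gap between N-DEP and A-DEP was larger for Vnn1 than for each of the 10. It ran from 0.15 (Sod2) to 0.69 (Itih4) without OVA, median 0.32, beside 1.14 for Vnn1, a value that chose it. With OVA, on arrays outside the selecting contrast, it ran from 0.01 (Cd14) to 0.29 (Slc39a4), median 0.21, beside 0.72 for Vnn1. In ADEP/OVA over Saline/OVA, the 10 ran from 0.15 to 0.94 with a median of 0.52, above the 0.27 of Vnn1.

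**Figure D4:**
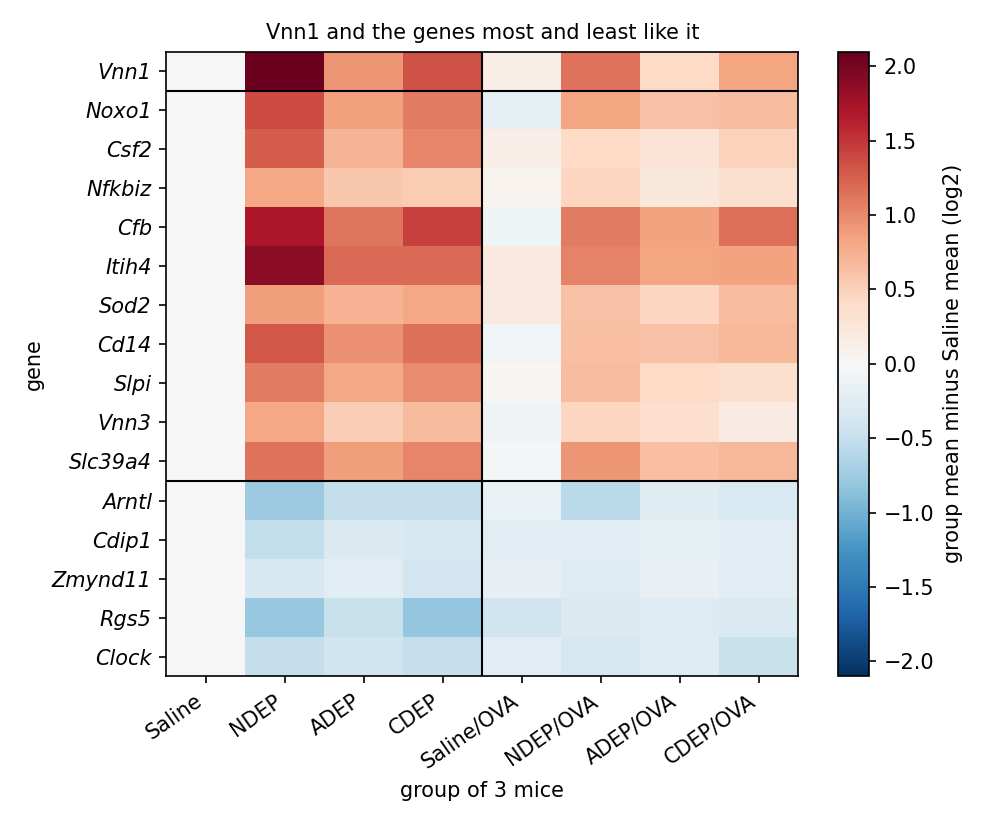
Group means minus the Saline mean (log2, colour scale) for Vnn1, the 10 genes most like it and the 5 least like it, in 8 groups of 3 mice. The first 10 genes below Vnn1 are red in all 6 particle groups, and the NDEP column of Vnn1 is its darkest at 2.06.

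Genes around vanin in metabolism were read from lists of its neighbouring pathways, by how many members passed an adjusted p of 0.05 in limma. The background for these counts was 2.25% of genes higher and 0.452% lower in NDEP, 1.16% and 0.492% in ADEP, and 2.28% and 1.76% in CDEP, each against Saline. Against Saline/OVA it was 1.74% and 0.331% in NDEP/OVA, 0.629% and 0.0565% in ADEP/OVA, and 3.62% and 1.17% in CDEP/OVA. Many of the pathway calls were fragile: of 48 over the 6 particle comparisons, 17 passed without any 1 array, and 30 passed with the RNA quality covariates, including 0 of the 11 in CDEP against Saline. All 48 kept their sign with those covariates.

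Of the genes that make coenzyme A or recycle pantothenate, 12 of 16 listed were measured. Vnn3 was the 1 that rose in NDEP, ADEP, CDEP and NDEP/OVA, with none in ADEP/OVA or CDEP/OVA. Pank1, a pantothenate kinase that starts coenzyme A synthesis, fell in CDEP by 0.44 ± 0.11 (SE; adjusted p = 0.0212), a call lost on leaving out Saline replicate 1, Saline replicate 3, CDEP replicate 2 or CDEP replicate 3. The median of the 12 was 0.02 in NDEP, -0.01 in CDEP and 0.06 in NDEP/OVA, beside medians over all genes of 0.00, -0.02 and 0.02.

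Of the genes that handle cysteamine, cysteine and taurine, 13 of 15 were measured and none rose. Fmo1, a flavin monooxygenase, was the 1 that fell, by 0.65 in ADEP (adjusted p = 0.0245), and is named for its call. That call was lost without Saline replicate 1, ADEP replicate 1 or ADEP replicate 3.

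Of the glutathione genes, 14 of 15 were measured, and none fell in the 6 particle comparisons. Gclc, the catalytic subunit of the first enzyme of glutathione synthesis, rose by 0.79 in NDEP/OVA (adjusted p = 0.00613) and by 0.79 in CDEP/OVA (adjusted p = 0.00323). It also rose by 0.69 in ADEP and 0.59 in CDEP. Without single arrays, the CDEP/OVA call of Gclc held each time, the NDEP/OVA call was lost without Saline/OVA replicate 2, the ADEP call was lost without Saline replicate 1, ADEP replicate 1 or ADEP replicate 3, and the CDEP call without Saline replicate 1 or any CDEP array. Lap3, a leucine aminopeptidase, rose by 0.87 and Ggt5, a gamma-glutamyltransferase family member, by 0.54 in CDEP/OVA, and Gpx4, a lipid peroxide reductase, by 0.43 in CDEP. Lap3 passed without any 1 array. Ggt5 did not pass on leaving out Saline/OVA replicate 1 or 3 or CDEP/OVA replicate 1 or 2, nor did Gpx4 on leaving out Saline replicate 1 or 3 or CDEP replicate 2. The list's median was 0.29 in NDEP, 0.27 in ADEP and 0.30 in CDEP, and 0.13, 0.09 and 0.12 in the same particles with OVA.

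Of the PPAR targets and fatty acid oxidation genes, 26 of 30 were measured. Without OVA, 0 rose and 1 fell in NDEP, 0 and 2 in ADEP, and 1 and 1 in CDEP. Acaa1b, a peroxisomal thiolase, fell by 1.13 in NDEP, 1.16 in ADEP and 1.34 in CDEP. Its calls in NDEP and ADEP were lost without Saline replicate 1 and without replicate 3 of the particle group. Fabp3, a fatty acid binding protein abundant in heart, fell by 0.99 in NDEP/OVA (adjusted p = 0.00104) and by 1.14 in CDEP/OVA (adjusted p = 9.48e-05). The 1 that rose was Fgf21, a metabolic hormone, by 0.37 in CDEP, where its signal was about as dim as the lowest 25% of genes or dimmer (4.12 to 4.30 in Saline and 4.56 to 4.63 in CDEP), and Fabp1, the liver fatty acid binding protein, fell by 0.56 in ADEP. Both passed on leaving out only 1 of their 6 arrays, Saline replicate 3. With OVA, none rose, 1 fell in NDEP/OVA, none fell in ADEP/OVA and 4 fell in CDEP/OVA. The other 3 in CDEP/OVA were Ppara itself (-0.48, at a low level), Acaa2, a mitochondrial thiolase (-0.36), and Pdk4, a kinase that restrains glucose oxidation (-1.03). Ppara did not pass on leaving out Saline/OVA replicate 2 or 3 or CDEP/OVA replicate 2. Acaa2 passed with no array left out only, and Pdk4 also without CDEP/OVA replicate 3.

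Heart muscle markers moved with these groups, 3 of 10 lower in NDEP/OVA and 9 of 10 in CDEP/OVA, beside 0.331% and 1.17% of all genes. With heart and fat markers as covariates, Fabp3 was at -0.68 in NDEP/OVA (adjusted p = 0.0191) and at -0.65 in CDEP/OVA (adjusted p = 0.0433). In the same fit, Ppara was at -0.50 in CDEP/OVA (adjusted p = 0.0900), Acaa2 at -0.21 (adjusted p = 0.426) and Pdk4 at -0.49 (adjusted p = 0.516).

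Of the genes listed for oxidative stress and the factor NRF2, 16 of 21 were measured. Whether each of them answers to NRF2 was not tested. Without OVA, 3 rose in NDEP, 2 in ADEP and 3 in CDEP, and 0, 1 and 1 fell. Txn1, thioredoxin, rose by 0.52, 0.53 and 0.54 in NDEP, ADEP and CDEP, and passed without any 1 array in all 3. Sod2 rose by 0.87, 0.73 and 0.81, with the ADEP call lost without Saline replicate 1 or ADEP replicate 3. Hmox1, heme oxygenase 1, rose by 0.82 in NDEP and 0.83 in CDEP, both lost without Saline replicate 1. Gstm1, a glutathione transferase, fell by 0.44 in ADEP and 0.41 in CDEP, the first call lost without Saline replicate 1 or ADEP replicate 1 or 3, the second without Saline replicate 1 or 3 or CDEP replicate 1 or 2. With OVA, 1 rose and 3 fell in NDEP/OVA, 0 and 2 in ADEP/OVA, and 1 and 3 in CDEP/OVA. Gsta3, another glutathione transferase, fell by 0.81, 0.60 and 0.59 in these groups and passed without any 1 array. Gstm1 fell by 0.40 in NDEP/OVA and by 0.55 in CDEP/OVA, where it passed without any 1 array. Catalase, Cat, fell by 0.50, 0.68 and 0.52 in NDEP/OVA, ADEP/OVA and CDEP/OVA. Hmox1 rose by 0.72 in NDEP/OVA and Sod2 by 0.45 in CDEP/OVA. The calls of Cat in all 3 groups, of Gstm1 and Hmox1 in NDEP/OVA and of Sod2 in CDEP/OVA were lost without Saline/OVA replicate 2 or 3, and also on leaving out NDEP/OVA replicate 1 or 3, ADEP/OVA replicate 1 or 2, or CDEP/OVA replicate 1 or 2 in the group concerned. The call of Cat in NDEP/OVA was lost without Saline/OVA replicate 1 as well.

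Of the genes of the aryl hydrocarbon receptor, which binds polycyclic aromatic compounds, 8 of 9 were measured. Cyp1b1, a cytochrome P450, was the 1 that rose without OVA, by 1.17 in NDEP, 0.93 in ADEP and 0.97 in CDEP. The NDEP call held without any 1 array. The ADEP call was lost on leaving out Saline replicate 1 or 2 or ADEP replicate 1 or 3, and the CDEP call on leaving out Saline replicate 2 or CDEP replicate 2 or 3. With OVA none rose. Aldh3a1 fell by 0.69 in NDEP/OVA and Cyp1a2 by 0.36 in CDEP/OVA. The signal of Cyp1a2 was dim, at 4.31 to 4.66 in CDEP/OVA and 4.77 to 4.99 in Saline/OVA. The 25th percentiles of the arrays lay between 4.45 and 4.65. With the RNA quality covariates, the adjusted p of Cyp1a2 was 0.176 in limma. The Aldh3a1 call was lost on leaving out any array but NDEP/OVA replicate 1, and the Cyp1a2 call on leaving out replicate 2 or 3 of either group.

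Markers of some other cells moved as well, in part in the same groups as Vnn1 and in part in others. The background for the marker counts is the share of all genes that passed. Without OVA it was 2.25% higher and 0.452% lower in NDEP, 1.16% and 0.492% in ADEP, and 2.28% and 1.76% in CDEP. With OVA it was 1.74% and 0.331% in NDEP/OVA, 0.629% and 0.0565% in ADEP/OVA, and 3.62% and 1.17% in CDEP/OVA. Of 13 neutrophil genes measured, 6 rose in NDEP, 4 in ADEP and 6 in CDEP against Saline, and 3 rose in each particle group with OVA. Their summed level ran from 10.48 to 10.86 in Saline, 11.36 to 11.73 in NDEP, 11.22 to 11.81 in ADEP and 11.36 to 11.42 in CDEP. With OVA it ran from 10.16 to 10.88 in Saline/OVA, 11.00 to 11.75 in NDEP/OVA, 10.72 to 11.42 in ADEP/OVA and 11.40 to 11.51 in CDEP/OVA. The NDEP and ADEP ranges overlapped.

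Of 12 macrophage and monocyte genes, 3, 1 and 3 rose in NDEP, ADEP and CDEP, and 4, 1 and 4 in the same particles with OVA. Their summed level ran from 13.07 to 13.41 in Saline, 13.51 to 13.59 in NDEP, 13.22 to 13.33 in ADEP and 13.36 to 13.43 in CDEP. With OVA it ran from 13.24 to 13.31 in Saline/OVA, 13.33 to 13.81 in NDEP/OVA, 13.33 to 13.44 in ADEP/OVA and 13.35 to 13.55 in CDEP/OVA, so that all 3 particle groups stood above Saline/OVA. The macrophage and monocyte gene that passed in ADEP was Cd14, also among the genes most like Vnn1. Its ADEP call was lost without Saline replicate 1, ADEP replicate 1 or ADEP replicate 3. With the RNA quality covariates, the CDEP difference of Cd14 was 1.13 with an adjusted p of 0.147 in limma. Of 9 alveolar type 2 genes, 4, 2 and 3 rose without OVA and none with it, and the summed level ran from 15.05 to 15.57 in Saline, 15.63 to 15.74 in NDEP, 15.48 to 15.63 in ADEP and 15.61 to 15.71 in CDEP. The NDEP and CDEP ranges were thus clear of Saline, and the ADEP range overlapped it.

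Of 11 genes of club, ciliated and goblet cells, 4 rose and 1 fell in NDEP/OVA, 5 rose and 2 fell in CDEP/OVA, and none passed in ADEP/OVA. Those that rose mark mucus cells: Clca1 rose by 4.96 in NDEP/OVA and 5.31 in CDEP/OVA, and the mucin Muc5ac by 1.37 and 1.93, all 4 without any 1 array as well. Those that fell were Cyp2f2, by 0.48 in both groups, and Scgb3a2, by 0.72 in CDEP/OVA. Both CDEP/OVA calls were lost without CDEP/OVA replicate 2. The NDEP/OVA call of Cyp2f2 was lost without Saline/OVA replicate 2 or 3 or NDEP/OVA replicate 3. The summed level of the list overlapped Saline/OVA in both groups, at 15.17 to 15.35 in Saline/OVA, 15.19 to 15.28 in NDEP/OVA and 15.09 to 15.43 in CDEP/OVA. Without OVA, 1 of the 11 rose in ADEP and none in NDEP or CDEP. It was Scgb3a1, by 0.70 (adjusted p = 0.0492 in limma). That call was lost without Saline replicate 1 or 2 or ADEP replicate 1 or 3.

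Of 10 endothelial genes, 1 fell in NDEP, 3 in ADEP and 1 in CDEP, and none with OVA. The shares of all genes that fell were 0.452%, 0.492% and 1.76% in NDEP, ADEP and CDEP. The 3 in ADEP were Ptprb, Vwf and Cldn5, each lost without ADEP replicate 1 or 3, and Ptprb and Cldn5 also without Saline replicate 1. The calls in NDEP (Ptprb) and CDEP (Vwf) held in only 1 of 6 fits with 1 array left out. Their list's summed level ran from 14.01 to 14.15 in Saline, 13.75 to 13.79 in NDEP, 13.45 to 13.72 in ADEP and 13.71 to 13.87 in CDEP. The part of all these cells in the Vnn1 values was not tested. The lung markers Sftpc and Scgb1a1 lay between 13.35 and 14.15 on all arrays. Alb of liver lay above the 25th percentile of its array on all 24, from 4.87 to 7.33, and Umod of kidney on 0, as did the eosinophil genes Epx and Prg2.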

How the data were processed

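The authors deposited 1 table of linear intensity values for 22690 probe sets on 24 arrays, made with RMA per the submitters' processing notes; the sources used here do not name its version or settings. Because the values reached 18195.5 from a minimum of 5.98 (medians per array 72.2 to 75.5), log2 was taken. Of the probe sets, 64 were controls, and 20380 named 1 gene, 691 several and 1555 none in the platform annotation. Among the probe sets that named the same single gene, only the brightest on average was kept, which gave 12393 genes. All 8 groups entered 1 limma fit (version 3.58.1, R 4.3.3; 16 residual degrees of freedom) with Benjamini-Hochberg adjustment over all genes in each comparison and a threshold of 0.05. Single values were also compared by two-sided exact permutation tests. Group and replicate came from the sample labels, which give biological replicates; no 2 arrays shared more than 0.0354% of values. The fit was tested on simulated data. The number of arrays limits the precision.

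Vnn1 and all gene lists were chosen with earlier results of these data known. Genes named from a pathway list were those with the smallest p among members that passed, at most 4 per list. Only N-DEP and C-DEP against their controls, with and without OVA, counted for this rule. A member or call outside this rule was named after its values were seen. The genes most like Vnn1 were the 10 highest and 5 lowest Pearson correlations. Alternatives covered the gene summary, filter, scaling, fit, covariates and each array left out. Figures were drawn with matplotlib 3.10.9.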

Additional observations from a re-analysis of the deposited data

How the results depend on the processing

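Of the recomputed values for the main results, 367 kept their direction and their side of the threshold (for values without a test, they moved by less than 1 SD), 23 moved, 4 no longer passed, 1 newly passed and 1 changed sign. With RNA quality covariates, CDEP against Saline gave 1.03 (adjusted p = 0.0856), Saline/OVA against Saline gave -0.029 (adjusted p = 0.981) the N-DEP interaction gave -0.69, the C-DEP interaction -0.16 (adjusted p = 0.949) and CDEP/OVA against CDEP -0.19 (adjusted p = 0.784). With heart and fat marker covariates, ADEP/OVA against ADEP gave -0.15, CDEP against ADEP 0.67, the N-DEP interaction -0.76 and the A-DEP interaction -0.20. With only the groups compared, CDEP/OVA against CDEP gave -0.51 (adjusted p = 0.0402). By Spearman's rho, 6 of the 10 genes most like Vnn1 stayed among the top 10. The cause was not tested.

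Without any 1 array, CDEP/OVA against Saline/OVA ran from 0.54 to 0.79, ADEP/OVA against Saline/OVA from 0.09 to 0.44, NDEP/OVA against CDEP/OVA from 0.21 to 0.45 and CDEP/OVA against ADEP/OVA from 0.25 to 0.60, and 7 to 10 of the most like genes stayed. Pathway calls ran from 1 to 10 in ADEP (9 with all arrays), 5 to 13 in CDEP (11), 2 to 12 in NDEP/OVA (8), 1 to 4 in ADEP/OVA (2) and 5 to 11 in CDEP/OVA (12).

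Replicate numbers are shared between groups, but the 84 pairs of same-numbered arrays had a median correlation of deviations of 0.03 (lowest -0.32), and 10 of 24 arrays correlated best with their own number. With the replicate block, no Vnn1 call changed and 47 of 48 pathway calls held. Leaving out the 2 arrays with the highest Gapdh difference (Saline replicate 1 and CDEP/OVA replicate 3) was chosen after seeing the data and changed no Vnn1 call.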
